A study of Rattus norvegicus with 4 samples.

Results

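The genes described here belong to the Hippo output pathway. They are 10 genes named by their symbols: Yap1 and Wwtr1 (the gene of TAZ), the 4 TEAD transcription factors Tead1, Tead2, Tead3 and Tead4, the kinase gene Lats2, and the target genes Ccn1, Ccn2 and Amotl2. Each symbol was found once among the 32883 genes of the count matrices. Levels were taken from the nuclei of brown fat and of the fat around the aorta in rats. The 2 libraries of thoracic aorta perivascular adipose tissue (taPVAT) and the 2 libraries of subscapular brown adipose tissue (BAT) came from naive male Dahl salt-sensitive rats (strain SS/HsdMcwiCrl) aged 16 weeks, with no treatment and no genetic change named in the labels. Dahl salt-sensitive rats are an inbred strain whose blood pressure rises on a high-salt diet. The tissue was frozen and minced before nuclei were isolated. The design names 2 rats per tissue and does not say whether 1 rat gave both tissues. Pairs of values are given below with replicate 1 first, and lists of 4 values in the order taPVAT replicates 1 and 2, BAT replicates 1 and 2.

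YAP and TAZ are coactivators that carry mechanical and growth signals to the nucleus. In a cell with low tension or high density the kinases LATS1 and LATS2 phosphorylate them, and they stay in the cytoplasm. In the nucleus they bind TEAD factors, which hold the DNA contact that YAP and TAZ lack, and drive genes such as Ccn1 and Ccn2, which encode secreted matricellular proteins, and Amotl2, an angiomotin family protein that binds YAP in turn. Lats2 is itself a reported target, which makes it a negative feedback arm. Activity of the pathway is set largely by phosphorylation and localisation of the proteins, which RNA counts do not measure. In blood vessels the pathway is known for endothelial sprouting and for the response of smooth muscle and fibroblasts to stiffness.

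The libraries held 63654436 to 158140959 counts of unique molecular identifiers (UMIs), and 12061 to 40074 nuclei per library were kept, above the target of 10000 nuclei per library. Between 126 and 424 barcodes were shared by any 2 libraries, at most 1.29% of a library. Nuclei were grouped by clusters named from marker genes, so that each class below is a marker-based, "like" class, and the 10 genes and their pathway lists were left out of the clustering. The classes held 2651, 481, 1494 and 1596 vascular endothelial nuclei, 769, 287, 516 and 556 mural nuclei (smooth muscle and pericytes), 953, 605, 944 and 657 fibroblast nuclei and 29234, 9486, 23208 and 19733 adipocyte nuclei. The defining markers were present in each: 12 endothelial markers summed to 4750.2 to 6695 CPM (UMIs of a gene scaled to a common total of UMIs of the class in a library) in endothelial nuclei against 66.9 to 119 CPM in adipocytes, 11 mural markers to 6691 to 9927 CPM in mural nuclei against 138 to 168 CPM, and 10 fibroblast markers to 6200.4 to 9448 CPM in fibroblasts against 56.9 to 90.7 CPM. None of the 12 adipocyte markers, which include Adipoq and the brown fat gene Ucp1, was at 0 in adipocytes of any library. Adipocyte markers were also counted in the other classes, where the median one reached 29.1% to 58.8% of its adipocyte level in endothelial nuclei, 25.2% to 50.6% in mural nuclei and 21.9% to 37.1% in fibroblasts. Levels are compared between classes and libraries and not between genes, since how introns were counted is not stated in the labels.

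The coactivators differed in where they were found. Yap1 RNA was counted in all 4 classes: 83.2 to 122 CPM in mural nuclei, 84.8 to 94.4 CPM in endothelial nuclei, 77.9 to 96.0 CPM in fibroblasts and 45.1 to 71.3 CPM in adipocytes. The first 3 of these ranges overlapped, and all 3 lay above the adipocyte range. In myeloid nuclei Yap1 stood at 42.6% to 88.0% of its adipocyte level and in T or NK lymphocyte nuclei at 51.1% to 98.8%, below the share of the median adipocyte marker in 2 of 4 libraries for each class, and its RNA there cannot be told apart from adipocyte RNA. Wwtr1 was a gene of the stromal and vascular nuclei. It stood at 234, 687, 378 and 542 CPM in endothelial nuclei, 195 to 295 CPM in fibroblasts and 177 to 287 CPM in mural nuclei, against 12.9, 8.96, 4.87 and 8.91 CPM in adipocytes. Endothelial, fibroblast and mural ranges overlapped, and every one of these 12 values lay above every adipocyte value. The mean over libraries was 56.8 ± 12.8 CPM of Yap1 in adipocytes against 87.5 ± 9.49 CPM in fibroblasts, and 8.90 ± 3.26 CPM of Wwtr1 against 246 ± 44.6 CPM (SD, n = 4). Classes come from the same counts, so these differences between classes are described and not tested.

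Within classes Wwtr1 was uneven. Mural nuclei fell into cluster 16, led by the pericyte genes Rgs5, Abcc9 and Pdgfrb, and cluster 29, led by the smooth muscle genes Acta2, Myh11 and Myocd. Wwtr1 stood at 215, 306, 297 and 295 CPM in cluster 16 of the 4 libraries, and at 91.9, 111 and 105 CPM in cluster 29 of taPVAT replicate 1 and BAT replicates 1 and 2, where taPVAT replicate 2 had fewer than 20 nuclei. The smooth muscle values thus all lay below the pericyte values. In endothelial nuclei Wwtr1 was highest in both replicate 2 libraries, 687 CPM in taPVAT and 542 CPM in BAT, and lowest in taPVAT replicate 1. That order follows the replicate number of the labels and not the tissue.

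The TEAD genes divided the classes between them. Tead1 was the broad member: it stood at 386 to 884 CPM in fibroblasts, 399 to 608 CPM in mural nuclei, 203 to 384 CPM in endothelial nuclei and 188 to 285 CPM in adipocytes, and neighbouring ranges in this order overlapped except mural over endothelial. Tead4 was endothelial, at 48.2 and 91.3 CPM in the taPVAT libraries against 67.7 and 74.0 CPM in the BAT libraries. Mural nuclei held 1.75 to 5.10 CPM, fibroblasts 2.32 to 3.74 CPM and adipocytes 0.0771 to 0.372 CPM, so the lowest endothelial library was above the highest library of each of these. Lymphatic endothelial nuclei also held Tead4, at 31.8 and 46.3 CPM in taPVAT, and mesothelial nuclei of taPVAT held a mean of 14.1 CPM (SD 9.09, n = 2). Tead3 went the other way, with 36.4 and 59.6 CPM in the taPVAT libraries against 43.6 and 34.2 CPM in the BAT libraries in mural nuclei, 11.7 to 29.4 CPM in fibroblasts, 6.71 to 10.5 CPM in adipocytes and 1.05 to 5.14 CPM in endothelial nuclei. The endothelial values were 15.6% to 59.0% of the adipocyte level, below the share of the median adipocyte marker in 3 of 4 libraries. Endothelial Tead3 RNA cannot be told apart from adipocyte RNA. Mesothelial nuclei of taPVAT held a mean of 33.4 CPM of Tead3 (SD 16.8, n = 2). Among these 4 classes Tead2 was highest in mural nuclei and rests on few UMIs, with 9.47, 31.5, 9.28 and 15.8 CPM from 13, 18, 10 and 18 UMIs, against 1.93 to 7.34 CPM in endothelial nuclei. Lymphatic endothelial nuclei of taPVAT held a mean of 12.7 CPM of Tead2 (SD 14.7, n = 2). Inside the mural class Tead2 was in the pericyte cluster 16, at 13.7, 34.0, 14.3 and 27.9 CPM, and in smooth muscle cluster 29 no library held more than 1.88 CPM. Tead3 was in both, at 36.9 to 60.4 CPM in cluster 16 and 26.3 to 44.9 CPM in cluster 29.

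**Figure D1:**
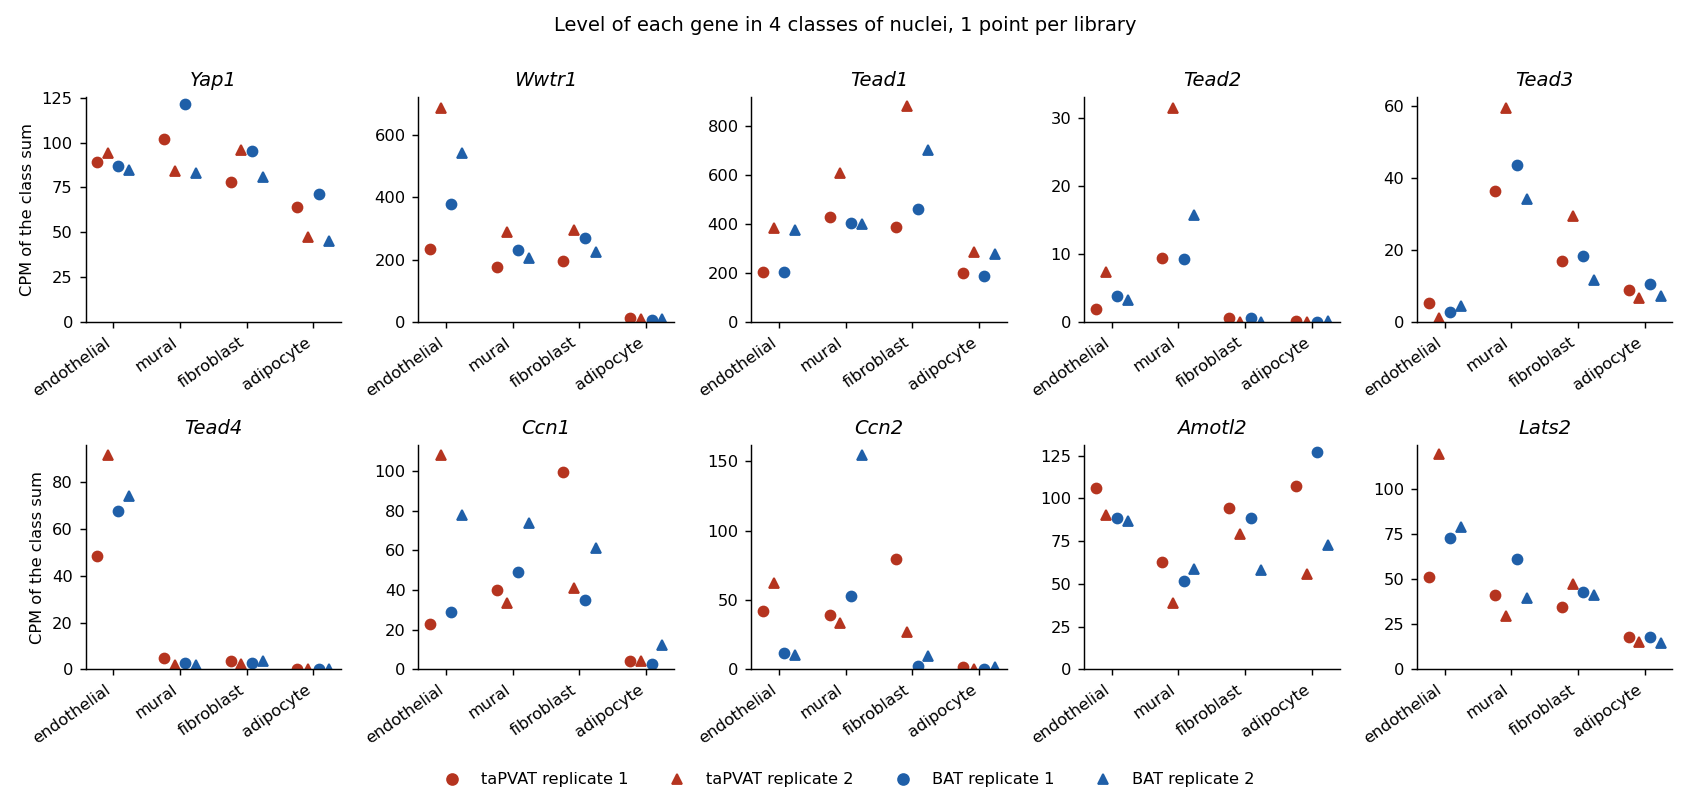
Level of each of the 10 genes (vertical axis, CPM of the class sum, separate scale per panel) in vascular endothelial, mural, fibroblast and adipocyte nuclei, 1 point per library (red, taPVAT; blue, BAT; circles, replicate 1; triangles, replicate 2). Tead4 is seen in endothelial nuclei, Tead2 and Tead3 lead in mural nuclei, Wwtr1 is near the floor of the axis in adipocytes, and the Amotl2 points of adipocytes span those of fibroblasts and of endothelial nuclei, with the mural points below the endothelial ones.

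Lats2, the kinase that restrains YAP and TAZ, stood at 51.6, 119.6, 72.7 and 79.0 CPM in endothelial nuclei, 29.8 to 61.2 CPM in mural nuclei, 34.9 to 47.2 CPM in fibroblasts and 14.8 to 17.9 CPM in adipocytes. The adipocyte range lay below each of the others, and neighbouring ranges among the other 3, in this order, overlapped. Over 39 sums of a library and a named class with at least 20 nuclei, log2(CPM + 1) of Lats2 was closest among the members to that of Wwtr1 (Pearson r = 0.87) and then Yap1 (r = 0.79). These sums share libraries and depth, so the correlations are a description.

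The 3 target genes did not share one pattern. Ccn1 and Ccn2 lay higher in vascular and stromal nuclei than in adipocytes, and the Amotl2 range of adipocytes overlapped those of the other classes. Their promoters are shown because these genes are the readout of YAP, TAZ and TEAD. RefSeq (GRCr8) entries were matched for 6 of the 10 genes, and the 250 bases before the start of Ccn1 (chr2:237225690-237225939, minus strand), Ccn2 (chr1:22624615-22624864, minus strand) and Amotl2 (chr8:112182376-112182625, plus strand) are printed 5′ to 3′ with matches to the TEAD-type motif GGAATG, on either strand (CATTCC on the other), in capitals.
Ccn1: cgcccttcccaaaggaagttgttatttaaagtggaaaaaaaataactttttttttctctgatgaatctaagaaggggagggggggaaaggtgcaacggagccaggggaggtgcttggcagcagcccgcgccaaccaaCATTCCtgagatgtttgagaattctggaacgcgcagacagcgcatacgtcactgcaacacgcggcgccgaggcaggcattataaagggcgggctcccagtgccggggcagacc
Ccn2: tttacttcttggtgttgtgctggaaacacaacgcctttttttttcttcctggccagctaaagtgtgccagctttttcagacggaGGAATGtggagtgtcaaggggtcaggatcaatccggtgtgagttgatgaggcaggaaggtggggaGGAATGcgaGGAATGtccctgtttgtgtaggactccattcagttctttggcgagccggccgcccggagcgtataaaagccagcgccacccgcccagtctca
Amotl2: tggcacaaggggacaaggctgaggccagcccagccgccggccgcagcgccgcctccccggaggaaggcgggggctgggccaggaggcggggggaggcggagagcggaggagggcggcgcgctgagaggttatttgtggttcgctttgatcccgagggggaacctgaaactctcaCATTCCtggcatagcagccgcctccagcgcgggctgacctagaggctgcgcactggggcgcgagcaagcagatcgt
Ccn2 held 3 matches, beginning 166, 101 and 92 bases before the start, Ccn1 held 1 at 113 bases and Amotl2 held 1 at 76 bases. Of 33469 promoters of the same length, 12.1% held at least 1 match and 0.0807% held 3 or more. Of the other matched members, Yap1 held 1 and Wwtr1 and Tead3 none. The AP-1 motif TGANTCA and the CArG box of serum response factor were also searched on both strands, and neither was found in these 3 windows, while 6.34% and 1.5% of all promoters held them. No motif match overlapped another motif searched. A match describes the letters and is not evidence of binding.

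Ccn1, first described as a growth-factor-inducible immediate early gene, stood at 22.7 and 108 CPM in the taPVAT libraries against 28.9 and 78.0 CPM in the BAT libraries in endothelial nuclei. Fibroblasts held 99.7, 41.0, 35.1 and 61.1 CPM in the same order, mural nuclei 40.1, 33.3, 49.2 and 73.6 CPM and adipocytes 4.09, 4.30, 2.64 and 12.4 CPM. The ranges of the first 3 classes overlapped and all lay above the adipocyte range. In endothelial nuclei both replicate 2 libraries were high and both replicate 1 libraries low, in fibroblasts taPVAT replicate 1 was highest, and in mural nuclei and adipocytes BAT replicate 2 was highest. Schwann cell nuclei held 10.8 to 39.2 CPM and myeloid nuclei 3.80 to 13.7 CPM.

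Ccn2, which encodes connective tissue growth factor, differed most between libraries in fibroblasts. There taPVAT replicate 1 was 28.6 times BAT replicate 1, which held 5 Ccn2 UMIs, and taPVAT replicate 2 was 2.74 times BAT replicate 2. Mural nuclei held 33.3 to 154 CPM, endothelial nuclei 10.1 to 61.9 CPM and fibroblasts 2.79 to 79.8 CPM. These ranges overlapped and lay above that of adipocytes, 0.615 to 1.54 CPM. Of adipocyte nuclei, 0.554% and 0.369% in taPVAT and 0.280% and 0.497% in BAT held a Ccn2 UMI. Within the mural class Ccn2 was in the smooth muscle cluster 29, with 99.0 CPM in the larger taPVAT library and 129.5 and 325 CPM in the BAT libraries, while the pericyte cluster 16 held 12.6 and 7.55 CPM in taPVAT and 11.4 and 4.92 CPM in BAT. Cluster 29 of taPVAT replicate 2 had 19 nuclei, under the minimum of 20, and its value is not given. The tissues are therefore not compared inside cluster 29. Cluster 28, the endothelial cluster led by Vwf and Plvap, held 86.3 and 186 CPM in taPVAT and 53.3 and 15.2 CPM in BAT, from 82, 23, 7 and 2 UMIs. In every library this was above cluster 15, an endothelial cluster led by Gja5, Bmx and Eln. Lymphatic endothelial nuclei of taPVAT held 113 and 108 CPM, and none of the 70453 UMIs of the 20 such nuclei in BAT replicate 1 was Ccn2, which allows up to 42.6 CPM at 3 counts, by counting error only.

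Amotl2 stood at 107 and 56.0 CPM in the taPVAT libraries against 127 and 72.5 CPM in the BAT libraries in adipocytes, at 87.0 to 106 CPM in endothelial nuclei, 58.4 to 94.1 CPM in fibroblasts and 38.6 to 62.6 CPM in mural nuclei. The adipocyte range overlapped all 3, and the mural range lay below the endothelial range. Over the 39 sums Ccn1 and Ccn2 had r = 0.76, while Amotl2 had r = 0.02 with Ccn1 and 0.08 with Ccn2. Against the coactivators, Ccn1 had r = 0.67 with Wwtr1 and 0.53 with Yap1, Ccn2 had 0.64 and 0.57, and Amotl2 had 0.39 and 0.39. In mural nuclei Amotl2 reached 40.9% to 81.0% of its adipocyte level, beside the share of the median adipocyte marker given above, and the part of adipocyte RNA in it was not tested.

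These orders depend in part on how nuclei were put into classes. With a marker gate on each nucleus in place of clusters, 4100 nuclei of the adipocyte clusters were taken as mural beside 2017 of the mural clusters, 2552 as endothelial beside 5744 and 2003 as fibroblast beside 2703. Wwtr1 then stood at 105 to 213 CPM in endothelial nuclei, 40.8 to 68.0 CPM in mural nuclei and 75.8 to 121 CPM in fibroblasts, all above its adipocyte range, and Tead4 at 19.9 to 33.5 CPM in endothelial nuclei, above the other 3 classes. Yap1 stood at 56.3 to 85.6 CPM in endothelial nuclei, 51.8 to 79.5 CPM in mural nuclei and 58.3 to 87.7 CPM in fibroblasts, which overlapped the adipocyte range of 44.3 to 69.4 CPM. The adipocyte range was also overlapped by Tead1 in mural nuclei and fibroblasts, Lats2 and Ccn1 in mural nuclei, Ccn2 and Tead3 in fibroblasts and Tead3 in endothelial nuclei, none of which overlapped it in the clusters. The mural and endothelial ranges of Tead1 and of Amotl2, which lay apart in the clusters, overlapped as well.

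**Figure D2:**
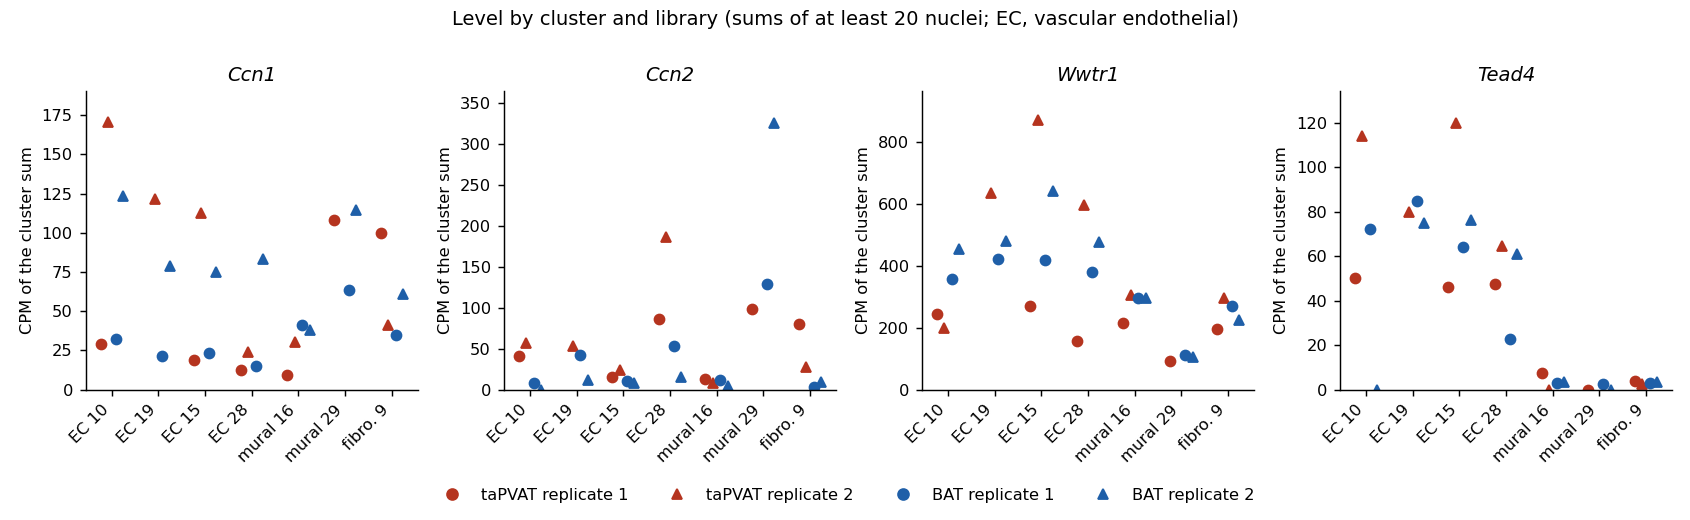
Ccn1, Ccn2, Wwtr1 and Tead4 by cluster (vertical axis, CPM of the cluster sum; horizontal axis, 4 vascular endothelial, 2 mural clusters and the fibroblast cluster), 1 point per library with at least 20 nuclei of the cluster. Ccn2 is high in mural cluster 29 and endothelial cluster 28 and low in mural cluster 16, and Wwtr1 is lower in mural cluster 29 than in cluster 16.

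Among 8809 genes with a mean of at least 10 CPM over the 39 sums, those whose log2 level followed a member most closely were taken by Pearson r, given in brackets. For Wwtr1 these were Klf7 (0.95), Cnn3 (0.94), Dst (0.93), Sh3d19 (0.93) and AC095390.2 (0.92), where Cnn3 encodes an actin-binding calponin and Dst a cytolinker. For Yap1 they were Pkd2 (0.83), Sgce (0.81), Mpdz (0.81), Parva (0.81) and AC095390.2 (0.80), and for Tead1 App (0.87), Pard3b (0.86), Daam1 (0.85), Mpdz (0.83) and Zeb1 (0.83). For Ccn1 they were Nectin3 (0.90), P4ha2 (0.87), Mgp (0.86), Rhbdf1 (0.85) and Inka2 (0.83), for Ccn2 Eln (0.82), Fam13c (0.79), Pitpnm3 (0.79), St6galnac2 (0.78) and Pdlim3 (0.78) and for Amotl2 RGD1563680 (0.83), Cped1 (0.77), Man2c1 (0.75), Zdhhc6 (0.75) and Tfdp2 (0.73). Eln encodes elastin, Mgp the matrix Gla protein, P4ha2 a collagen prolyl hydroxylase and Parva an integrin-linked adaptor.

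The tissues were then compared within each class, taPVAT over BAT, with edgeR's quasi-likelihood test on the class sums and Benjamini-Hochberg adjustment over all genes tested, and a gene past an adjusted p of 0.05 is called. No member was called in any of the 4 classes. Of 10 members tested in endothelial nuclei 0 were called, beside 0 of 10521 genes (0%). In mural nuclei 0 of 9 members were called beside 0.0115% of genes, in fibroblasts 0 of 8 beside 0.21%, and in adipocytes 0 of 10 beside 0%. Tead4 in mural nuclei and Tead2 and Tead4 in fibroblasts were too low to be tested. At an unadjusted p under 0.05, Ccn2 alone passed in endothelial, mural and fibroblast nuclei and no member passed in adipocytes, beside 1.21%, 4.14%, 4.84% and 2.19% of all genes. DESeq2 called 1 member, Ccn2 in fibroblasts, beside 50 of the 8857 genes to which it gave an adjusted p (0.565%), and no member in endothelial, mural or adipocyte nuclei, beside 0.0169%, 0.215% and 0.402% of genes. Over all nuclei of a library, which mix the classes, 0 of 10 members were called with edgeR beside 0% of genes. DESeq2 called 0 of 10 there beside 109 of 18737 genes (0.582%). With edgeR 0 had an unadjusted p under 0.05 beside 2.92% of genes.

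Ccn2 had the largest tissue differences of the members tested, and not in one direction. In fibroblasts it stood at 79.8 and 27.1 CPM in the taPVAT libraries against 2.79 and 9.88 CPM in the BAT libraries, from 128, 35, 5 and 11 UMIs. Both taPVAT libraries were above both BAT libraries, with a log2 fold change of 3.10 (SE 0.70, 95% interval 1.5 to 4.70; unadjusted p = 0.002, edgeR adjusted p = 0.218). The interval lies off 0 before adjustment, and the adjusted threshold was not passed. In endothelial nuclei it stood at 42.0 and 61.9 CPM in the taPVAT libraries against 11.5 and 10.1 CPM in the BAT libraries, from 196, 59, 30 and 28 UMIs, again with both taPVAT libraries above both BAT libraries and a log2 fold change of 2.19 (SE 0.37, 95% interval 1.32 to 3.05; unadjusted p = 0.001, edgeR adjusted p = 1). In mural nuclei the order was opposite: 39.3 and 33.3 CPM in the taPVAT libraries against 52.9 and 154 CPM in the BAT libraries, from 54, 19, 57 and 176 UMIs, with a log2 fold change of -1.55 (SE 0.53, 95% interval -2.77 to -0.34; unadjusted p = 0.019, edgeR adjusted p = 0.999). In adipocytes the tissues overlapped, and the log2 fold change was 0.04 (95% interval -1.53 to 1.61). The mural value rests on BAT replicate 2: without that library it was -0.53. The fibroblast value was 2.16 without taPVAT replicate 1, 2.28 without BAT replicate 1 and 2.27 with a marker gate on each nucleus. The fibroblast difference was 3.66 without taPVAT replicate 2 and 4.22 without BAT replicate 2, and the mural difference was -2.15 without BAT replicate 1. Each fit with 1 library left out leaves 1 library in a tissue, which then has no spread of its own. DESeq2 called Ccn2 in fibroblasts (3.03, adjusted p = 0.011), and without the low-count filter edgeR called it in fibroblasts (adjusted p = 1.3e-07) and endothelial nuclei (adjusted p = 0.045). Leaving out that filter also raised the number of all genes called in both classes above that of the main fits.

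One fit of the 4 classes with the library as a term compared the tissue differences of Ccn2 between classes. Relative to adipocytes the difference was 2.98 (SE 0.78, 95% interval 1.29 to 4.67; unadjusted p = 0.002, edgeR adjusted p = 0.741) in fibroblasts, 2.02 (SE 0.69, 95% interval 0.50 to 3.53; unadjusted p = 0.013, edgeR adjusted p = 1) in endothelial nuclei and -1.55 (SE 0.68, 95% interval -3.03 to -0.07; unadjusted p = 0.042, edgeR adjusted p = 1) in mural nuclei. No gene was called in these 3 contrasts (0 of 11270 each, or 0%), beside 3.39%, 1.5% and 3.66% of genes at an unadjusted p under 0.05, and DESeq2 was not run on this fit. Relative to mural nuclei, a contrast added after the data were seen, Ccn2 differed by 4.53 (SE 0.79, 95% interval 2.80 to 6.26; unadjusted p = 1.0e-04, edgeR adjusted p = 0.103) in fibroblasts and by 3.57 (SE 0.72, 95% interval 1.99 to 5.14; unadjusted p = 3.5e-04, edgeR adjusted p = 0.373) in endothelial nuclei, where 2 and 0 of 11270 genes were called (0.0177% and 0%, with 4.5% and 3.25% at an unadjusted p under 0.05). Without taPVAT replicate 2, which leaves 1 taPVAT library, the fibroblast minus mural difference of Ccn2 was 5.06. This difference was called without the low-count filter, where more genes were called in all than in the main fit.

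**Figure D3:**
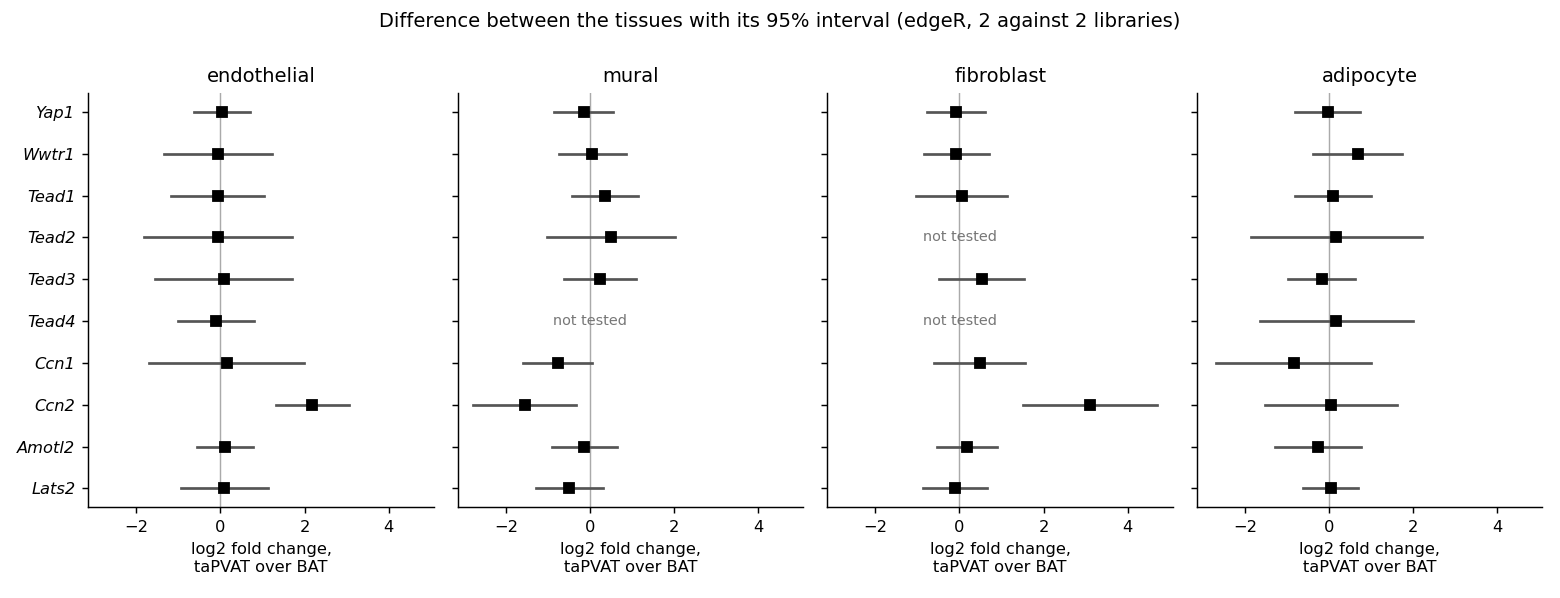
log2 fold change of each gene, taPVAT over BAT (horizontal axis), in 4 classes of nuclei, with squares for the edgeR estimate and lines for its 95% interval. Only the Ccn2 intervals in endothelial, mural and fibroblast nuclei lie off 0 before adjustment, to the right in endothelial nuclei and fibroblasts and to the left in mural nuclei.

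Other values are set beside the Ccn2 difference in fibroblasts. Mesothelial and lymphatic markers were higher in both taPVAT libraries than in both BAT libraries, while the tissues overlapped in summed immediate early RNA. The summed level of 10 mesothelial markers was 89.1 and 144 CPM in taPVAT and 2.23 and 0.898 CPM in BAT in the fibroblast class, with 5 of 10 at 0 in each taPVAT library and 9 of 10 in each BAT library, and that of 8 lymphatic endothelial markers was 86.6 and 31.8 CPM in taPVAT and 3.90 and 19.8 CPM in BAT, with 0 to 3 markers at 0. Mesothelial nuclei of taPVAT held 12.9 and 12.3 CPM of Ccn2 and lymphatic endothelial nuclei 113 and 108 CPM. In taPVAT replicate 1 the 51 fibroblast nuclei with a Ccn2 UMI held 7975 CPM against 7775 CPM of fibroblast markers in those without, 87.5 CPM against 86.6 CPM of lymphatic and 107 CPM against 87.9 CPM of mesothelial markers. In taPVAT replicate 2 the 21 such nuclei held 10534 CPM against 9407 CPM of fibroblast, 64.8 CPM against 30.5 CPM of lymphatic and 151 CPM against 144 CPM of mesothelial markers. Fibroblast markers and lymphatic markers were each higher in the nuclei with a Ccn2 UMI in 4 of 4 libraries. Vascular endothelial markers were higher in 3 of 4, mural markers in 3 of 4 and mesothelial markers in 2 of 4. The BAT libraries had 3 and 7 nuclei with a Ccn2 UMI. All UMIs of these nuclei came to 102824 and 46324 in taPVAT and 6068 in BAT replicate 1, so their lymphatic levels rest on few UMIs. The nuclei with Ccn2 held mural markers at 1099 CPM against 761 CPM in taPVAT replicate 1 and 734 CPM against 769.6 CPM in replicate 2, and the part of these other cell types was not tested. Immediate early RNA, described below, was 1032 and 371 CPM in taPVAT and 277 and 542 CPM in BAT in fibroblasts. The share of fibroblasts with a Ccn2 UMI was 5.35% and 3.47% in taPVAT and 0.318% and 1.07% in BAT, and 4.50% and 2.18% in taPVAT and 0.334% and 0.972% in BAT after each nucleus was thinned to 1000 UMIs, against 0.0906% to 0.224% of thinned adipocytes. Thinning left out 109, 10, 46 and 40 shallower fibroblast nuclei, and the Wilson 95% intervals were 3.30% to 6.12% and 1.28% to 3.70% in taPVAT and 0.114% to 0.978% and 0.446% to 2.11% in BAT. Such intervals cover counting error within a library and not the spread between libraries. Median depth was 1504 to 1967 UMIs in fibroblasts and 2874 to 5006 in adipocytes.

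In endothelial nuclei the clusters were unevenly shared. Cluster 10 held 59.6%, 5.61%, 73.0% and 1.25% of the class, and cluster 19 held 0.453%, 59.9%, 1.81% and 66.2%, so that both follow the replicate number of the labels, while cluster 28 held 12.9%, 7.07%, 3.01% and 2.51%. In sums of at least 50 nuclei of clusters 10, 19 and 15, a limit set after the values were seen, Ccn2 stood higher in taPVAT: 40.8 against 7.70 CPM in cluster 10 of the replicate 1 libraries, 53.8 against 11.3 CPM in cluster 19 of the replicate 2 libraries, and 15.8 and 23.9 against 10.9 and 7.72 CPM in cluster 15. The 3 smaller sums of clusters 10 and 19 rest on 0 to 2 Ccn2 UMIs, with 56.9 CPM in cluster 10 of taPVAT replicate 2, no UMI in cluster 10 of BAT replicate 2 and 42.4 CPM in cluster 19 of BAT replicate 1. In cluster 28, where both taPVAT values given above exceed both BAT values, taPVAT replicate 2 held 34 nuclei and the BAT libraries 45 and 40. The cluster 15 values rest on 7 to 24 UMIs a library. The 8 lymphatic markers summed to 65.1 and 71.3 CPM in taPVAT and 27.3 and 67.9 CPM in BAT in the class, and stood at 76.5 against 64.4 CPM in nuclei with and without a Ccn2 UMI in taPVAT replicate 1 and at 62.3 against 72.2 CPM in replicate 2. Of endothelial nuclei, 4.98% and 7.07% in taPVAT and 1.74% and 1.63% in BAT held a Ccn2 UMI, and 3.56% and 3.50% in taPVAT and 0.881% and 1.03% in BAT after thinning, which left out 431, 24, 132 and 144 nuclei. Of mural nuclei, 4.68% and 3.48% in taPVAT and 7.56% and 11.3% in BAT held one, and 2.87% and 2.86% in taPVAT and 2.99% and 8.41% in BAT after thinning, which left out 106, 7, 14 and 33 nuclei. Among the thinned mural shares, the Wilson interval of BAT replicate 2, 6.33% to 11.1%, lay above those of both taPVAT libraries, 1.84% to 4.43% and 1.45% to 5.54%, and that of BAT replicate 1, 1.82% to 4.87%, overlapped them. These intervals cover counting error within a library and not the spread between libraries, so they do not test a tissue difference. The smooth muscle cluster 29 made up 15.9%, 6.62%, 22.9% and 28.2% of the class, lower in both taPVAT libraries. In the pericyte cluster 16 the tissues overlapped in Ccn2 level. Inside cluster 29, where taPVAT replicate 2 had 19 nuclei and no value is given, the tissues were not compared. The part of this cluster share in the mural difference was not tested.

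Ccn1 did not pass the test in any class. Its log2 fold change was 0.15 in endothelial nuclei (95% interval -1.69 to 1.99), 0.48 in fibroblasts (-0.61 to 1.56), -0.84 in adipocytes (-2.68 to 1.01) and -0.77 in mural nuclei (-1.59 to 0.05; unadjusted p = 0.061, edgeR adjusted p = 0.999), where both BAT libraries lay above both taPVAT libraries. Its levels are set beside the immediate early genes Fos, Fosb, Jun, Junb, Egr1, Ier2, Atf3 and Nr4a1, which respond to stimuli and tissue handling within minutes. Their summed level was 301 and 711 CPM in taPVAT and 251 and 705 CPM in BAT in endothelial nuclei, 1032 and 371 CPM in taPVAT and 277 and 542 CPM in BAT in fibroblasts, 235 and 237 CPM in taPVAT and 237 and 573 CPM in BAT in mural nuclei and 202 and 275 CPM in taPVAT and 143 and 460.2 CPM in BAT in adipocytes. The library with most immediate early RNA was also the one with most Ccn1, and the one with most Ccn2, in all 4 classes. In endothelial, mural and fibroblast nuclei, the classes in which this was compared, nuclei with a Ccn1 UMI held more immediate early RNA than the other nuclei of their class in 11 of 12 comparisons, for example 1905 against 892 CPM in fibroblasts of taPVAT replicate 1. For Ccn2 this was so in 10 of 12. Some groups were small, such as 16 nuclei with a Ccn1 UMI and 10 with a Ccn2 UMI in mural nuclei of taPVAT replicate 2. Nuclei with a UMI could also be deeper. In mural nuclei of taPVAT replicate 1 the median was 2600 UMIs with Ccn1 and 1422 without, and the part of depth was not tested. In endothelial nuclei taPVAT replicate 2 and BAT replicate 2 had 711 and 705 CPM of immediate early RNA and 61.9 and 10.1 CPM of Ccn2. The median log2 fold change of the 8 genes was -0.74 in mural nuclei and 0.64 in fibroblasts, and none was called with edgeR or DESeq2. In fibroblasts 2 of the 8 reached an unadjusted edgeR p under 0.05, higher in taPVAT, beside 4.84% of all genes. In mural nuclei 1 did, lower in taPVAT, beside 4.14%, and none did in endothelial nuclei or adipocytes. The part of tissue handling in these levels was not tested.

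Adipocyte Ccn1 was highest in BAT replicate 2, where cluster 31, 176 nuclei whose leading genes included Thbs1, Fosb, Egr2, Atf3 and Fos, held 187 CPM of Ccn1 (106 UMIs) and 3910.2 CPM of immediate early RNA. The other adipocytes of that library held 10.9 CPM of Ccn1. Without cluster 31 the adipocyte log2 fold change of Ccn1 was -0.72. Thbs1 encodes thrombospondin 1, a secreted matrix protein.

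**Figure D4:**
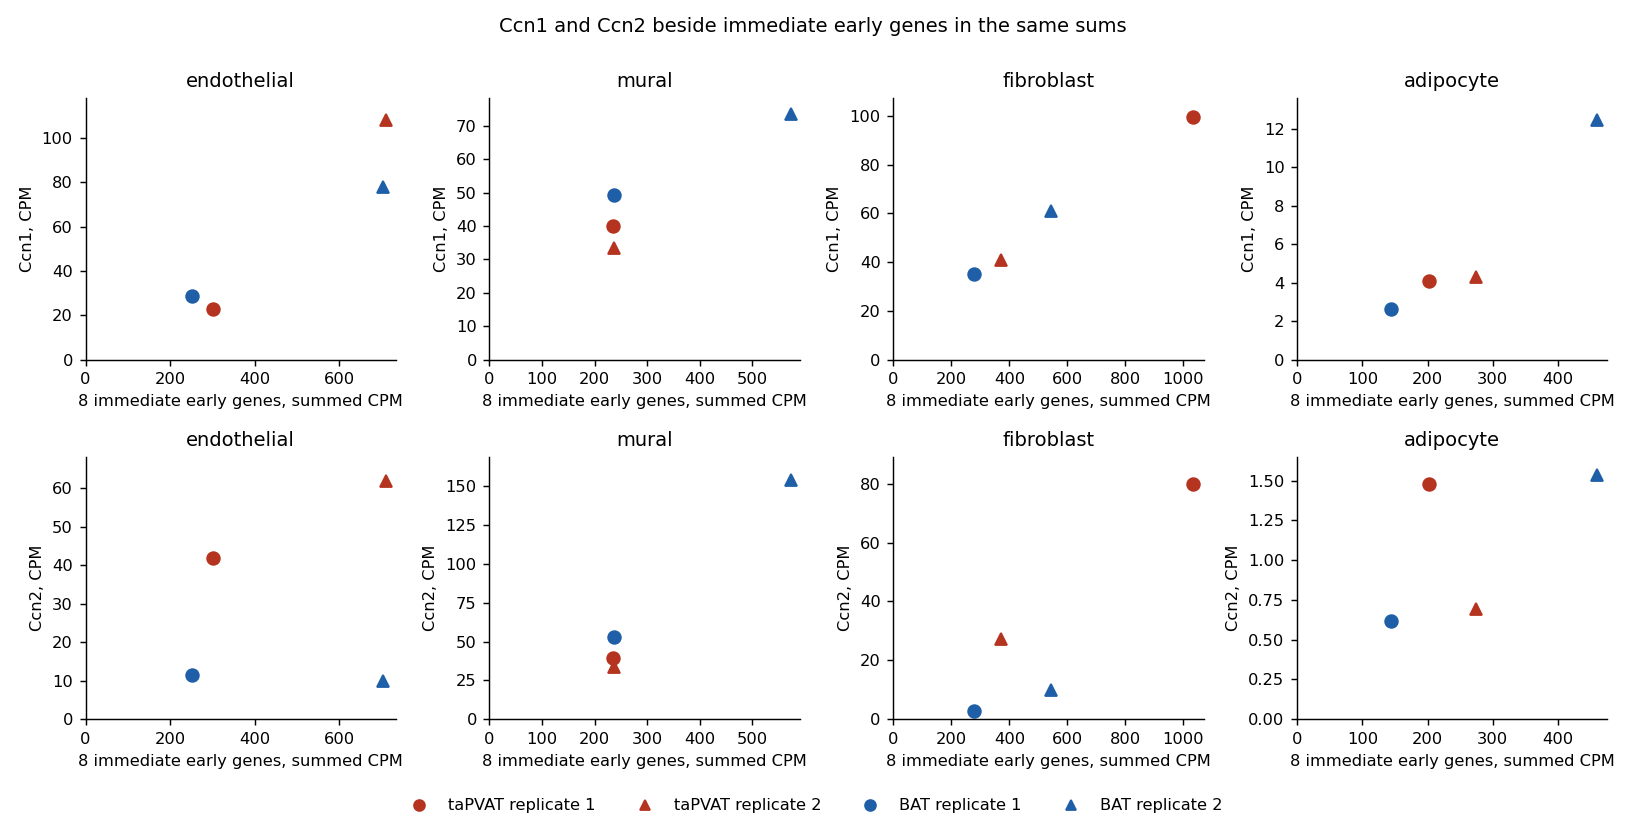
Ccn1 (top row) and Ccn2 (bottom row), vertical axis in CPM, beside the summed CPM of 8 immediate early genes (horizontal axis) in the same class sums, 1 point per library and 1 panel per class. The library furthest right is also the highest for Ccn1 and for Ccn2 in each class. In endothelial nuclei both taPVAT libraries are above both BAT libraries for Ccn2.

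None of the upstream members, nor Amotl2, reached an unadjusted p under 0.05. The taPVAT and BAT libraries were fully apart for 3 of 10 members in endothelial nuclei, Yap1, Ccn2 and Amotl2, all above in taPVAT, beside 20.6% of all genes there. This was so for 3 of 9 in mural nuclei (Tead1 above, Ccn1 and Ccn2 below) beside 30.8%, for 1 of 8 in fibroblasts (Ccn2) beside 27%, and for 1 of 10 in adipocytes (Wwtr1 above) beside 20.5%. Read against these shares, the counts single out no group of members. Some gaps were narrow. The lower taPVAT and the higher BAT library held 8.96 and 8.91 CPM of Wwtr1 in adipocytes, and 90.2 and 88.5 CPM of Amotl2 in endothelial nuclei. Yap1 had a log2 fold change of 0.04 in endothelial nuclei (95% interval -0.62 to 0.70), -0.15 in mural nuclei (-0.85 to 0.54), -0.08 in fibroblasts (-0.78 to 0.61) and -0.03 in adipocytes (-0.81 to 0.74). Wwtr1 had 0.68 in adipocytes (-0.37 to 1.73; unadjusted p = 0.161, edgeR adjusted p = 1), and -0.06, 0.06 and -0.07 in endothelial, mural and fibroblast nuclei. Tead1 had 0.35 in mural nuclei (-0.44 to 1.13) and between -0.06 and 0.09 in the other classes. The endothelial Tead4 value was -0.11 (-1.02 to 0.80), and Lats2 ranged from -0.49 in mural nuclei to 0.09 in endothelial nuclei. Amotl2 ranged from -0.26 in adipocytes (-1.28 to 0.76) to 0.17 in fibroblasts (-0.54 to 0.89). Intervals this wide do not show that the tissues are alike. Adipocytes of the 4 libraries lay largely in different clusters. Cluster 1 held 45.8% of those of taPVAT replicate 1 and cluster 5 held 74.2% of replicate 2. Cluster 0 held 53.6% of those of BAT replicate 1 and cluster 2 held 65.5% of replicate 2. Each of these clusters held at most 9.28% of the adipocytes of any other library, and the part of this was not tested.

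The rest of the pathway was read from 3 lists. No gene of any list was called in any of the 4 classes with edgeR or with DESeq2. Over all nuclei of a library edgeR called none, and DESeq2 called 1, beside 0.582% of all genes. This was Wwc1 (log2 fold change 1.80, DESeq2 adjusted p = 0.040), which edgeR gave an adjusted p of 0.791. Wwc1, which encodes the upstream regulator KIBRA, stood there at 1.97 and 1.69 CPM in taPVAT and 0.392 and 0.653 CPM in BAT. Of 24 Hippo kinases, adaptors and upstream regulators, 21 to 23 were tested per class, and their median log2 fold change was 0.03 in endothelial nuclei, 0.13 in mural nuclei, 0.11 in fibroblasts and 0.02 in adipocytes, beside 0.01, 0.01, -0.02 and 0.00 over all genes in the same order. An unadjusted p under 0.05 was reached by 1, 1, 2 and 0 of them, beside 1.21%, 4.14%, 4.84% and 2.19% of all genes. Ajuba, a LIM protein that binds LATS kinases, stood at 89.6 and 165 CPM in taPVAT and 57.5 and 49.9 CPM in BAT (log2 fold change 1.20, SE 0.38, unadjusted p = 0.014, edgeR adjusted p = 0.999) in mural nuclei and at 14.8 and 34.6 CPM in taPVAT and 9.24 and 8.98 CPM in BAT (log2 fold change 1.29, SE 0.50, unadjusted p = 0.038, edgeR adjusted p = 1) in endothelial nuclei. In fibroblasts Dchs1, a protocadherin ligand of the Hippo pathway, stood at 8.72 and 12.4 CPM in taPVAT and 2.23 and 3.59 CPM in BAT (log2 fold change 1.82, SE 0.61, unadjusted p = 0.017, edgeR adjusted p = 0.671), and the kinase gene Taok3 at 153 and 202 CPM in taPVAT and 95.8 and 96.1 CPM in BAT (log2 fold change 0.82, SE 0.31, unadjusted p = 0.029, edgeR adjusted p = 0.820). These genes were picked by their p.

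Of 10 binding partners and cofactors, 7 to 8 were tested, with medians of -0.03 in endothelial nuclei, -0.16 in mural nuclei, -0.09 in fibroblasts and -0.06 in adipocytes. An unadjusted p under 0.05 was reached by 1 of them, Runx2 in fibroblasts. Runx2, a RUNX factor bound by YAP and TAZ, stood in fibroblasts at 89.1 and 81.3 CPM in taPVAT and 162 and 107 CPM in BAT (log2 fold change -0.72, SE 0.31, unadjusted p = 0.047, edgeR adjusted p = 1), and Amotl1, an angiomotin related to Amotl2, at 66.1 and 67.4 CPM in taPVAT and 95.8 and 97.0 CPM in BAT (log2 fold change -0.60, SE 0.29, unadjusted p = 0.074, edgeR adjusted p = 1). Of 17 other reported targets, 11 to 14 were tested, with medians of 0.28 in endothelial nuclei, 0.09 in mural nuclei, 0.12 in fibroblasts and -0.06 in adipocytes. Of these, 1 target higher and 1 lower in fibroblasts and 2 higher and 2 lower in adipocytes reached an unadjusted p under 0.05, and none did in endothelial or mural nuclei, beside 4.84% of all genes in fibroblasts and 2.19% in adipocytes. Igfbp3, an insulin-like growth factor binding protein, stood at 139 and 280.4 CPM in taPVAT and 557 and 330.5 CPM in BAT (log2 fold change -1.13, SE 0.43, unadjusted p = 0.029, edgeR adjusted p = 0.820) in fibroblasts, 11.8 and 22.0 CPM in taPVAT and 34.6 and 26.2 CPM in BAT (log2 fold change -0.99, SE 0.42, unadjusted p = 0.0502, edgeR adjusted p = 1) in endothelial nuclei and 2.89 and 2.51 CPM in taPVAT and 6.43 and 5.53 CPM in BAT (log2 fold change -1.11, SE 0.31, unadjusted p = 0.014, edgeR adjusted p = 1) in adipocytes. Dock5, a guanine nucleotide exchange factor gene, stood in fibroblasts at 65.4 and 64.3 CPM in taPVAT and 37.3 and 30.5 CPM in BAT (log2 fold change 0.86, SE 0.31, unadjusted p = 0.022, edgeR adjusted p = 0.736), and Rbms3, an RNA-binding protein gene, in adipocytes at 86.8 and 89.1 CPM in taPVAT and 144 and 165 CPM in BAT (log2 fold change -0.78, SE 0.25, unadjusted p = 0.025, edgeR adjusted p = 1). The 2 higher targets of adipocytes, named after their values were seen, were Myof, which encodes the membrane protein myoferlin, at 4.89 and 4.34 CPM in taPVAT and 1.84 and 2.69 CPM in BAT (log2 fold change 1.05, SE 0.37, unadjusted p = 0.033, edgeR adjusted p = 1), and Asap1, which encodes an ARF GTPase-activating protein, at 216 and 148 CPM in taPVAT and 129 and 85.3 CPM in BAT (log2 fold change 0.79, SE 0.32, unadjusted p = 0.0496, edgeR adjusted p = 1).

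Other classes were smaller. Schwann cell nuclei held Wwtr1 at 181 to 231 CPM and Tead1 at 413 to 603 CPM, both overlapping the mural ranges. Myeloid nuclei held Wwtr1 at 12.9 to 26.7 CPM and Lats2 at 14.3 to 20.2 CPM. Mesothelial nuclei, a class named in taPVAT alone (404 and 82), held Wwtr1 at 164 and 259 CPM and Amotl2 at 118 and 177 CPM, with Ccn1 at 19.7 and 16.5 CPM.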

How the data were processed

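Raw UMI counts per gene and barcode of 2 taPVAT and 2 BAT libraries were used as the authors deposited them. Cell Ranger 7.1.0 and Rnor_6.0 are named in the submitters' processing notes. How introns were counted and the annotation release are not stated there. Barcodes needed 500 detected genes, with no mitochondrial limit. The median mitochondrial share was 16.4% in fibroblast cluster 9 and 17.2% and 11.6% in mural clusters 16 and 29. It was 19.9%, 20.2%, 16.6% and 13.1% in endothelial clusters 10, 19, 15 and 28, beside 4.76% to 12.1% in the adipocyte clusters. Doublets were scored by simulation within each library. The caller marked 3 barcodes in taPVAT replicate 2 and was judged to have failed, so the 275 top-scoring barcodes were removed, a number scaled from the other libraries. At an assumed 0.8% per 1000 barcodes, 34.4%, 9.87%, 27.6% and 21.4% doublets were expected in the 4 libraries. Removed were 6.76%, 2.23%, 16.0% and 4.83%, so doublets may remain, in shares that differ between libraries. Nuclei were clustered without integration (3000 variable genes, 30 components, 15 neighbours, Leiden resolution 1) into 33 clusters, leaving out the 67 member and list genes, and named from 15 marker lists. The naming levels were set after seeing the data, and names may differ from the study's. Mixed clusters entered no class.

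Sums per library and class were tested with edgeR 4.0.16 (quasi-likelihood, TMM, filterByExpr), with DESeq2 1.42.0 as an alternative. The tests were checked on simulated data. Other alternatives were no low-count filter, each library left out, a replicate block, stricter nucleus filters, no doublet removal, no mitochondrial genes and a marker gate. Wilson intervals and limits of 3 counts cover counting error only. P-values of the tissue tests are set against the spread between these libraries, which is estimated in part from other genes. In the fit of 4 classes they are set against the spread of class sums left after the library term. Named were the 10 members, per list and class the called genes or else up to 2 with the smallest p (a selection is printed), and the 5 genes most like 6 members. Members and lists were chosen with earlier results of these data known. Symbols not found exactly once (such as Wtip) were left out.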

Additional observations from a re-analysis of the deposited data

Results flagged for a closer look

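The tissue difference of Ccn2 went opposite ways between classes. Every taPVAT library was above every BAT library in endothelial nuclei and below in mural nuclei, and the log2 fold changes differed by 3.74 between these classes. Between fibroblasts and mural nuclei they differed by 4.66. In 1 fit with the library as a term these differences came to 3.57 (edgeR adjusted p = 0.373) and 4.53 (edgeR adjusted p = 0.103), so neither passed over all genes. The contrasts with mural nuclei were added after the data were seen. The mural log2 fold change of -1.55 rests on BAT replicate 2 and was -0.53 without it. The smooth muscle cluster 29, where mural Ccn2 was highest, made up 15.9%, 6.62%, 22.9% and 28.2% of the mural nuclei in the 4 libraries, and the part of this share was not tested. The order seen in the mural class was not seen inside the pericyte cluster 16, where the tissues overlapped. Inside cluster 29 the tissues were not compared, since taPVAT replicate 2 had 19 nuclei there. The median log2 fold change of 8 immediate early genes was 0.01 in endothelial nuclei, 0.64 in fibroblasts and -0.74 in mural nuclei, and the library with most of their RNA in each of these classes was also the one with most Ccn2. Their part was not tested either.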

How the results depend on the processing

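The main fits called 0 in all nuclei, 0 in endothelial nuclei, 1 in mural nuclei, 20 in fibroblasts, 0 in adipocytes. Called genes numbered with DESeq2 109 in all nuclei, 3 in endothelial nuclei, 14 in mural nuclei, 50 in fibroblasts, 62 in adipocytes; with the replicate block 226 in all nuclei, 215 in fibroblasts, 383 in adipocytes; with at least 1000 genes per nucleus 0 in mural nuclei; with at most 10% mitochondrial UMIs 0 in mural nuclei, 0 in fibroblasts; with a marker gate on each nucleus 0 in mural nuclei, 5 in fibroblasts; without the low-count filter 57 in all nuclei, 9 in endothelial nuclei, 178 in fibroblasts, 26 in adipocytes. The single member called, Ccn2, was called in fibroblasts with DESeq2, without the low-count filter and with the replicate block (1 each) and in endothelial nuclei without the low-count filter (1). Without that filter the contrasts between classes called 17 for vascular endothelial minus adipocyte, 79 for mural minus adipocyte, 77 for fibroblast minus adipocyte, 127 for fibroblast minus mural, 48 for vascular endothelial minus mural. With 1 library left out, a fit that assumes the lone library of a tissue varies like the others, called genes ranged 0 to 33 in all nuclei, 0 to 3 in endothelial nuclei, 0 to 82 in mural nuclei, 0 to 1 for members in mural nuclei, 23 to 82 in fibroblasts, 0 to 1 for members in fibroblasts, 0 to 128 in adipocytes, 0 to 1 for vascular endothelial minus adipocyte, 0 to 3 for mural minus adipocyte, 0 to 5 for fibroblast minus adipocyte, 0 to 11 for fibroblast minus mural, 0 to 3 for vascular endothelial minus mural. Folds of uncalled members changed sign, and the causes were not tested. With 1 library left out they ranged: in all nuclei Lats2 -0.098 to 0.091, Yap1 -0.29 to 0.22, Tead1 -0.26 to 0.43, Tead2 -0.35 to 0.78, Tead4 -0.65 to 0.22, Amotl2 -0.79 to 0.13, Tead3 -0.30 to 0.022, Ccn2 -0.039 to 1.66, Wwtr1 -0.45 to 0.53, Ccn1 -1.19 to 0.86, in endothelial nuclei Wwtr1 -1.06 to 0.53, Tead1 -0.62 to 0.50, Tead2 -0.94 to 1.0, Tead3 -1.73 to 0.47, Tead4 -0.64 to 0.32, Yap1 -0.020 to 0.097, Ccn1 -1.33 to 1.12, Lats2 -0.63 to 0.61, in mural nuclei Wwtr1 -0.39 to 0.40, Tead2 -0.49 to 1.32, Tead3 -0.17 to 0.63, Amotl2 -0.51 to 0.092, Yap1 -0.38 to 0.091, in fibroblasts Yap1 -0.28 to 0.096, Wwtr1 -0.44 to 0.23, Ccn1 -0.26 to 1.0, Lats2 -0.37 to 0.14, Tead1 -0.71 to 0.56, Amotl2 -0.030 to 0.42, in adipocytes Tead2 -0.69 to 1.21, Tead4 -1.42 to 0.79, Ccn2 -0.61 to 0.89, Lats2 -0.088 to 0.12, Yap1 -0.30 to 0.24, Tead1 -0.25 to 0.45, Amotl2 -0.79 to 0.10, Tead3 -0.38 to 0.025, Ccn1 -1.62 to 0.74. Differences between classes ranged: Ccn1 vascular endothelial minus adipocyte -0.62 to 1.61, Amotl2 vascular endothelial minus adipocyte -0.058 to 0.77, Amotl2 mural minus adipocyte -0.40 to 0.51, Ccn1 mural minus adipocyte -1.18 to 0.55, Ccn1 vascular endothelial minus mural -0.50 to 1.93. With DESeq2 the folds were in all nuclei Lats2 -0.012, in endothelial nuclei Tead2 0.17, Tead3 -0.12. With the replicate block the folds were in all nuclei Wwtr1 0.055, in endothelial nuclei Lats2 -0.016, in fibroblasts Tead1 -0.030. With at least 1000 genes per nucleus the folds were in all nuclei Wwtr1 0.11, in endothelial nuclei Yap1 -0.038, Wwtr1 0.047, in mural nuclei Yap1 0.17, in fibroblasts Yap1 0.011, Lats2 0.022. With at most 10% mitochondrial UMIs the folds were in all nuclei Tead2 -0.37, in endothelial nuclei Wwtr1 0.059, Tead1 0.029, Ccn1 -0.92, Lats2 -0.44, in mural nuclei Yap1 0.31, Wwtr1 -0.34, Ccn1 0.61, Amotl2 0.23, Lats2 0.22, in fibroblasts Amotl2 -0.33. With no doublet removal the folds were in endothelial nuclei Wwtr1 0.0039. With a marker gate on each nucleus the folds were in endothelial nuclei Yap1 -0.12, Tead3 -0.16, Ccn1 -0.22, Amotl2 -0.14, Lats2 -0.15, in mural nuclei Yap1 0.017, Tead3 -0.20, in fibroblasts Amotl2 -0.027. Ccn2 kept its direction in endothelial, mural and fibroblast nuclei under every alternative run. Deviations of same-numbered libraries correlated at 0.12 to 0.67, but 2 pairs and no label of a shared animal do not establish pairing, so the replicate block is an alternative only. Of 80 mean levels (10 members, 4 classes, 2 tissues), 45 moved by more than the spread of the libraries with the marker gate (39 lower, 6 higher, 17.0% to 205% of the value given), 21 without mitochondrial genes (each higher, at most 121%) and 11 with at least 1000 genes (9 higher, 2 lower). Ccn2 in fibroblasts rests on 128, 35, 5 and 11 UMIs, which limits its precision. Members too low to be tested under a setting have no value there, among them Ccn2 in fibroblasts with at most 10% mitochondrial UMIs. That limit kept 79, 43, 78 and 17 of the 953, 605, 944 and 657 fibroblast nuclei. In taPVAT replicate 2 it kept 27 endothelial and 10 mural nuclei.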
